A study of Mus musculus with 18 samples.

Results

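The vascular connexins described here are 4 gap junction genes, Gja5, Gja4, Gja1 and Gjc1. They were taken by gene name from a table of 16248 genes measured by RNA sequencing (RNA-seq) in sorted endothelial cells (ECs), and all 4 had values in all 18 libraries and passed the filter on low values. They were chosen by their names and, for Gja5, by measured values of these libraries, its fall with cGAMP and in tumours. The levels of Gja5 in those contrasts are therefore a description with no test. So are the differences of its cGAMP effect between tissues and of its level between the tumours. Earlier results of these data were also known when the members and the gene lists below were chosen.

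The study asked how tumour ECs respond when the DNA-sensing adaptor STING is activated by its ligand cGAMP, a cyclic dinucleotide. All mice were of the FVB strain, and live cells positive for CD31 and negative for CD45 were sorted. Wild-type mice gave normal ECs, taken from their mammary fat pad. MMTV-PyMT ECs came from breast tumours that arise in mice of that genotype, in which the promoter of a mammary tumour virus drives a viral oncogene in the mammary epithelium. Implanted ECs came from breast tumours in wild-type mice, which had received cultured cells of MMTV-PyMT tumours in the fat pad. Whether all vessels of these tumours came from the wild-type host was not stated. Each tissue was injected with PBS or cGAMP and taken 3 hr later, which gave 6 groups of 3 libraries. The labels gave no age, and p-values measure the spread between these libraries only.

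Connexin proteins build channels that dock between neighbouring cells and let ions and small messengers pass, and cGAMP itself is known to travel through such channels in some cell types. In vessels, Gja5 and Gja4 are connexins of arterial endothelium and are induced by flow and by Notch signals. Gja1 is a more widely used connexin, found in endothelium at sites of disturbed flow and also in smooth muscle cells and fibroblasts. Gjc1 is best known from vascular smooth muscle and the conduction system of the heart.

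The RefSeq promoter windows of Gja5, Gja4 and Gja1 are shown because Gja5 and Gja4 had lower levels and Gja1 had higher levels in both kinds of tumour ECs. Gjc1 was not matched. Each window is the 250 bases upstream of the RefSeq start site in GRCm38.p6, written on the strand of the gene. Capitals mark the longest run of bases that Gja5 and Gja4 share on the same strand.
Gja5, chr3:97032152-97032401, plus strand: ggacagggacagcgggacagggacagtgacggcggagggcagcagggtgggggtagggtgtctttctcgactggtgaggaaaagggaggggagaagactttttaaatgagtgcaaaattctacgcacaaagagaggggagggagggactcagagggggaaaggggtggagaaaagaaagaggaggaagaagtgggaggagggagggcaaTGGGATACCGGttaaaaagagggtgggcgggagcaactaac
Gja4, chr4:127314040-127314289, minus strand: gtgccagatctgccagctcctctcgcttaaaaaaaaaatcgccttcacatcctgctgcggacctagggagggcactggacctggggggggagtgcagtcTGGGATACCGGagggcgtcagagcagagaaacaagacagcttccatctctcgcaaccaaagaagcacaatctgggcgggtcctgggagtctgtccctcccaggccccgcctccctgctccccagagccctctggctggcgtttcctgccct
Gja1, chr10:56377050-56377299, plus strand: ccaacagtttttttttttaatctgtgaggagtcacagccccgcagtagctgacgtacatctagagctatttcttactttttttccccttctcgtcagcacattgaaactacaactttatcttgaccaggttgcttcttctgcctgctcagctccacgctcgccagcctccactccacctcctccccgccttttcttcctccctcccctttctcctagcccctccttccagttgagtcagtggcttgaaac

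The shared run TGGGATACCGG starts at −41 from the start site of Gja5 and at −151 from that of Gja4. It is held by 4 of 32851 RefSeq promoter windows of this length (0.01218%), the windows of Gja5 and Gja4 included. The run was found by comparing the windows of Gja5 and Gja4 and was not fixed in advance. It does not set this pair apart from Gja1. Longer runs of 12 bases were shared on opposite strands by Gja5 and Gja1 (0.1705% of windows) and by Gja4 and Gja1 (1.333%). A GC box (GGGCGG) occurs at 1 place each in Gja5 and Gja4 and at 0 places in Gja1, and 32.7% of all windows hold it. The short Krüppel-like factor motif CACCC occurs at 4 places in Gja5, 1 of which overlaps the GC box by 1 base, and at 0 places in Gja4 and Gja1, against 52% of windows. The AP-1 motif TGACTCA occurs at 1 place in Gja1, starting at −19, and at 0 places in the others, against 4.46% of windows. The Rbpj motif TGGGAA (21.6% of windows), the E-box CACGTG (6.02%) and a motif of the interferon-stimulated response element (2.98%) were in none of the 3 windows. Motifs were searched on both strands. These matches describe the letters of the windows only.

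Expression was given as FPKM, fragments per kilobase of exon length scaled to library size, so levels can be compared between genes. Recovered reads per library ranged from 9049262 to 12014545, and 1 read on a gene with 1 kb of exons was worth 0.0753 to 0.120 FPKM. The lowest and highest libraries held 74 and 2377 reads of Gja5, 389 and 2426 of Gja4, 2460 and 7257 of Gja1, and 126 and 754 of Gjc1. Gja5 (ENSMUSG00000057123.14) lies on chromosome 3, bases 96904693 to 97077416 of mm10. Of its 5746 exon bases, 165 (2.87%) overlap Gpr89 on the other strand, and although the library kit keeps the strand, it was not stated whether the counting used it. Gja4 (ENSMUSG00000050234.7) lies on chromosome 4, bases 127311421 to 127314039. Gja1 (ENSMUSG00000050953.10) lies on chromosome 10, bases 56377330 to 56402513, and Gjc1 (ENSMUSG00000034520.14) on chromosome 11, bases 102799579 to 102819700. The exons of these 3 genes overlap no other gene.

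The sorted cells carried endothelial markers, with all 8 of the list present. Under PBS they summed to 1003 to 1129 FPKM in normal ECs, to 715 to 872 FPKM in the MMTV-PyMT group, where 5 of the 8 were lower and 0 higher than in normal ECs, and to 1012 to 1284 FPKM in the implanted group (2 lower and 3 higher). Of all tested genes 26.6% were lower and 29.8% higher in the MMTV-PyMT group, and 23.6% and 25% in the implanted group. With cGAMP the libraries of the 3 tissues held 912 to 1051, 774 to 1048 and 1031 to 1731 FPKM. Markers of other cells were also present, but 0 of 4 adipocyte markers were listed. The 10 mural markers (pericytes and smooth muscle) summed to 1115 to 1250 FPKM in normal ECs under PBS, against 262 to 358 FPKM in the MMTV-PyMT group and 294 to 333 FPKM in the implanted group under PBS. The 6 epithelial markers summed to 313 to 395, 838 to 905 and 345 to 494 FPKM in the same 3 groups. Implanted cGAMP libraries differed most among themselves, with mural sums from 251 to 557 FPKM, fibroblast sums (5 markers) from 253 to 602 FPKM, and leukocyte sums (5 of 6 markers listed) from 40.8 to 183 FPKM. In bulk samples, fewer cells of a type and less RNA per cell cannot be told apart.

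**Figure D1:**
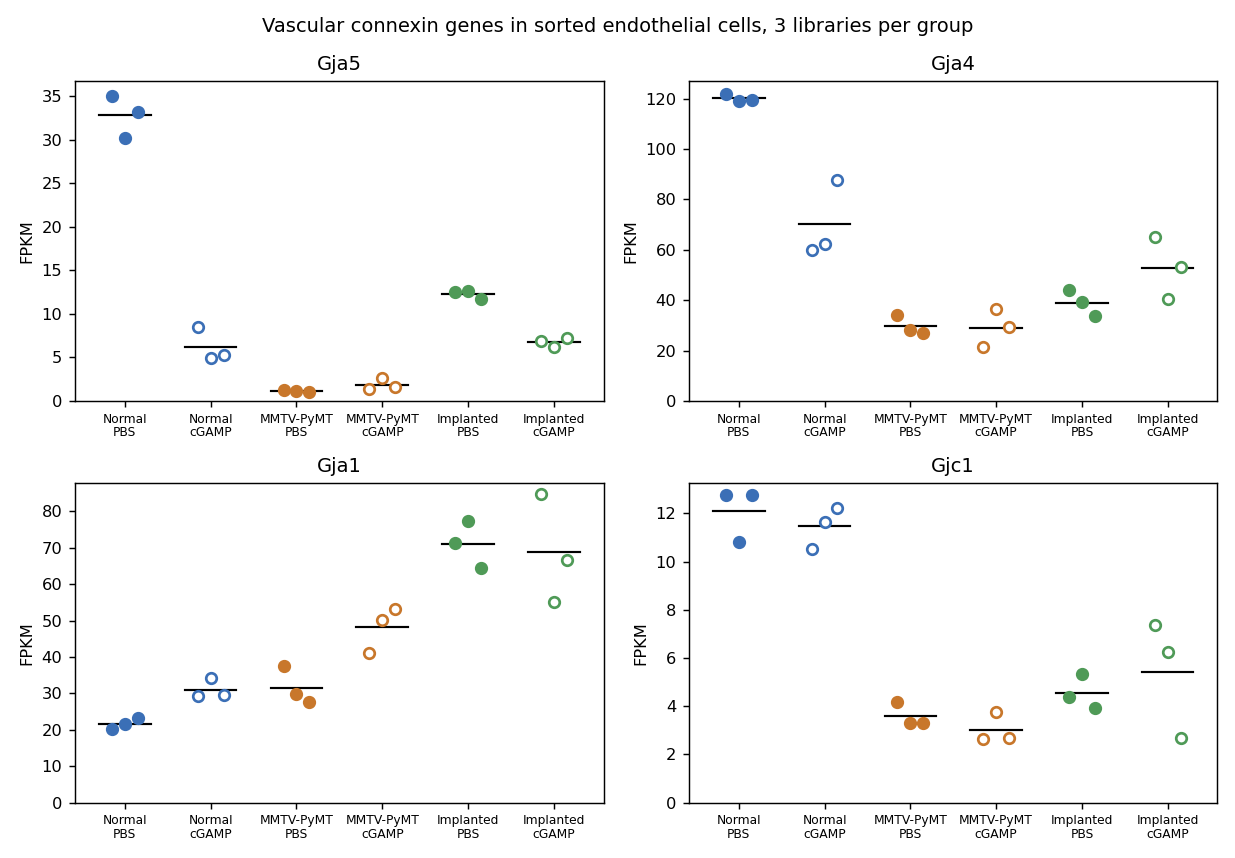
Level of each connexin gene (vertical axis, FPKM from 0) in the 6 groups (horizontal axis), with 1 point per library, filled for PBS and open for cGAMP, and a bar at the group mean. Gja5 and Gja4 were highest in normal ECs under PBS, Gja1 was highest in implanted ECs, and Gjc1 separated normal ECs from both tumours.

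Gja5 had its highest level in normal ECs under PBS, where the libraries held 35.03, 30.2 and 33.1 FPKM (32.8 ± 2.44, SD, n = 3). Under cGAMP the normal ECs held 8.51, 4.90 and 5.25 FPKM (6.22 ± 1.99, SD, n = 3), all 3 below every PBS library. The mean was 5.27-fold lower, and the log2 change was −2.26. Log2 changes here are of log2(FPKM + 1), a scale on which genes with low values change less. In that comparison 3 of 13983 tested genes had a lower log2 change, a rank favoured by the choice of Gja5 for its fall.

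MMTV-PyMT ECs were the tissue with the least Gja5, with 1.27, 1.19 and 1.05 FPKM under PBS (1.17 ± 0.109, SD, n = 3). This level was 28.0-fold below that of normal ECs, and 29.7% of the listed genes had a lower mean in these libraries, against 94.2% in normal ECs under PBS. Endothelial markers were lower there too, and per 1000 FPKM of their sum Gja5 stood at 30.4 ± 4.15 FPKM in normal ECs and at 1.5 ± 0.054 FPKM in MMTV-PyMT ECs under PBS (SD, n = 3). With cGAMP the MMTV-PyMT libraries held 1.33, 2.57 and 1.62 FPKM (1.84 ± 0.649, SD, n = 3). All 3 lay above the PBS libraries, the opposite side from normal ECs, with a log2 change of 0.37 at 74 to 148 reads per library. Here the values go against the description of Gja5 as a gene that falls with cGAMP.

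Implanted ECs lay in between, with 12.5, 12.7 and 11.7 FPKM of Gja5 under PBS (12.3 ± 0.486, SD, n = 3) and 6.89, 6.21 and 7.17 FPKM under cGAMP (6.76 ± 0.496, SD, n = 3). The cGAMP libraries were all below the PBS libraries, with a 1.82-fold lower mean and a log2 change of −0.78. From highest to lowest, the order of the groups was normal PBS, implanted PBS, implanted cGAMP, normal cGAMP, MMTV-PyMT cGAMP and MMTV-PyMT PBS. Implanted and normal ECs under cGAMP overlapped, and the other neighbours in this order did not. The contrast of implanted with MMTV-PyMT ECs under PBS is the difference of the tumour contrasts that the choice of the gene used. It is therefore described with no test. There Gja5 was 10.5-fold higher in implanted ECs, with 3 of 3 libraries above all of MMTV-PyMT and a log2 change of 2.62. In that comparison 45.5% of all tested genes passed an adjusted p of 0.05 (20.8% higher, 24.6% lower).

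Gja4, the other arterial connexin, was the most abundant member in normal ECs, with 122, 119 and 119 FPKM under PBS (120 ± 1.56, SD, n = 3). It ranked 193 from the highest among the listed genes in these libraries. Under cGAMP the values were 60.0, 62.4 and 87.7 FPKM (70.0 ± 15.3, SD, n = 3), all below the PBS libraries and more widely spread. Gja4 fell by 0.79 on the log2 scale (SE 0.19, adjusted p = 0.00537, limma), and the change was 1.72-fold on the FPKM scale. It also passed in each fit that left out 1 library, with a log2 change from −0.96 to −0.69.

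In MMTV-PyMT ECs, Gja4 held 34.3, 28.3 and 27.1 FPKM under PBS (29.9 ± 3.85, SD, n = 3) and 21.3, 36.4 and 29.4 FPKM under cGAMP (29.0 ± 7.54, SD, n = 3). The treated and untreated libraries overlapped, and the log2 change of −0.07 did not pass (95% interval −0.47 to 0.34, adjusted p = 0.869). In implanted ECs the values were 44.0, 39.4 and 33.5 FPKM under PBS (39.0 ± 5.27, SD, n = 3) and 65.1, 40.6 and 53.0 FPKM under cGAMP (52.9 ± 12.2, SD, n = 3). Here 2 of 3 treated libraries lay above all untreated ones, with a log2 change of 0.41 that did not pass (95% interval 0.01 to 0.82 before adjustment, adjusted p = 0.10). Without implanted cGAMP 2 it was 0.59 and passed (adjusted p = 0.0268), while it was 0.10 under scaling to total reads. The cGAMP effect on Gja4 differed between implanted and normal ECs by 1.21 (SE 0.27, adjusted p = 0.00553), where 18.6% of all tested genes passed (12.5% higher, 6.09% lower). The difference between MMTV-PyMT and normal ECs was 0.73 and did not pass (adjusted p = 0.112, with 8.37% of all tested genes passing, 5.48% higher and 2.9% lower), but it passed at 0.92 without MMTV-PyMT cGAMP 1 (adjusted p = 0.0328). The 2 tumours differed by 0.48 in this effect, short of the threshold (adjusted p = 0.299).

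Compared with normal ECs under PBS, Gja4 was 4.02-fold lower in MMTV-PyMT ECs (log2 change −1.98, SE 0.19, adjusted p = 4.89e-07) and 3.08-fold lower in implanted ECs (−1.61, SE 0.19, adjusted p = 4.64e-06). No tumour library reached the lowest normal one, and both comparisons share the normal PBS libraries. Implanted and MMTV-PyMT ECs did not differ by the test (log2 change 0.37, 95% interval −0.04 to 0.78, adjusted p = 0.126), although a fit of those 2 groups alone gave an adjusted p of 0.0350. Below normal PBS, each group in the order normal cGAMP, implanted cGAMP, implanted PBS, MMTV-PyMT PBS and MMTV-PyMT cGAMP overlapped its neighbour.

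Gja1, the widely used connexin, ran the other way. Normal ECs held 20.3, 21.5 and 23.3 FPKM under PBS (21.7 ± 1.5, SD, n = 3) and 29.3, 34.2 and 29.6 FPKM under cGAMP (31.0 ± 2.73, SD, n = 3). All treated libraries lay above the untreated ones, and the log2 change was 0.49 (SE 0.14, adjusted p = 0.0160). In MMTV-PyMT ECs the values were 37.4, 29.9 and 27.5 FPKM under PBS (31.6 ± 5.16, SD, n = 3) and 41.1, 50.1 and 53.0 FPKM under cGAMP (48.1 ± 6.24, SD, n = 3). Again all treated libraries lay higher, with a log2 change of 0.59 (SE 0.14, adjusted p = 0.0132). Both calls are near the threshold. The rise in normal ECs did not pass without normal PBS 1 (0.45, adjusted p = 0.0576) or normal cGAMP 2 (0.43, adjusted p = 0.0642). In MMTV-PyMT ECs it did not pass without PBS 2, PBS 3, cGAMP 2 or cGAMP 3 (0.50 to 0.56, adjusted p = 0.0523 to 0.0782).

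Implanted ECs had the most Gja1, with 71.2, 77.4 and 64.3 FPKM under PBS (71.0 ± 6.54, SD, n = 3) and 84.6, 55.1 and 66.5 FPKM under cGAMP (68.7 ± 14.9, SD, n = 3). The groups overlapped, and the log2 change of −0.06 did not pass (95% interval −0.37 to 0.24, adjusted p = 0.758). This value depends on the scaling, since it was −0.38 with scaling to total reads (adjusted p = 0.0185) and −0.46 with quantile normalization (adjusted p = 0.00509), both passing as falls. The effect of cGAMP was 0.66 lower in implanted than in MMTV-PyMT ECs on the log2 scale (SE 0.20, adjusted p = 0.0498), where 11.1% of all tested genes passed (7.34% higher, 3.72% lower). That call was lost in 15 of the 18 fits without 1 library (adjusted p = 0.0104 to 0.124 over all of them) and passed without MMTV-PyMT PBS 1, MMTV-PyMT cGAMP 1 or implanted cGAMP 1. It was 0.56 lower in implanted than in normal ECs and did not pass (adjusted p = 0.0693), but it passed without implanted cGAMP 1 (−0.72, adjusted p = 0.0144) and with both other scalings. The effects in MMTV-PyMT and normal ECs differed by 0.10 and did not pass (adjusted p = 0.818).

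Under PBS, Gja1 was 1.46-fold higher in MMTV-PyMT than in normal ECs (log2 change 0.51, SE 0.14, adjusted p = 0.00662) and 3.27-fold higher in implanted than in normal ECs (1.66, SE 0.14, adjusted p = 1.50e-07). It was 2.25-fold higher in implanted than in MMTV-PyMT ECs (1.15, SE 0.14, adjusted p = 1.44e-05). In each of these comparisons 3 of 3 libraries lay above all libraries of the other group. From highest to lowest, implanted PBS and implanted cGAMP overlapped, MMTV-PyMT cGAMP stood apart, MMTV-PyMT PBS and normal cGAMP overlapped, and normal PBS was lowest.

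Gjc1, the smooth muscle connexin, had the lowest level of the members in normal ECs under PBS, with 12.8, 10.8 and 12.7 FPKM (12.1 ± 1.13, SD, n = 3). Under cGAMP they held 10.5, 11.6 and 12.2 FPKM (11.5 ± 0.877, SD, n = 3). MMTV-PyMT ECs held 4.19, 3.30 and 3.32 FPKM under PBS (3.60 ± 0.506, SD, n = 3) and 2.62, 3.76 and 2.67 FPKM under cGAMP (3.02 ± 0.642, SD, n = 3). Treated and untreated libraries overlapped in both tissues, with log2 changes of −0.07 (95% interval −0.54 to 0.39, adjusted p = 0.838) and −0.20 (−0.67 to 0.26, adjusted p = 0.597). Implanted ECs held 4.39, 5.35 and 3.94 FPKM under PBS (4.56 ± 0.719, SD, n = 3) and 7.36, 6.25 and 2.69 FPKM under cGAMP (5.43 ± 2.44, SD, n = 3). The third treated library lay below all untreated ones and the other two above them. The log2 change of 0.13 did not pass (95% interval −0.33 to 0.60, adjusted p = 0.658), was −0.10 without implanted cGAMP 1 and −0.13 with scaling to total reads, and passed at 0.49 without implanted cGAMP 3 (adjusted p = 0.0136).

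The cGAMP effects on Gjc1 differed between tissues by −0.13 (MMTV-PyMT minus normal), 0.21 (implanted minus normal) and 0.34 (implanted minus MMTV-PyMT), none of which passed (adjusted p = 0.847, 0.693 and 0.557). The last was 0.70 without implanted cGAMP 3 and then passed (adjusted p = 0.0283).

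Both kinds of tumour ECs had less Gjc1 than normal ECs under PBS. The mean was 3.36-fold lower in MMTV-PyMT ECs (log2 change −1.51, SE 0.22, adjusted p = 2.88e-05) and 2.65-fold lower in implanted ECs (−1.24, SE 0.22, adjusted p = 0.000218). No tumour library overlapped the normal libraries. Implanted and MMTV-PyMT ECs differed by 0.27, which did not pass (95% interval −0.20 to 0.74, adjusted p = 0.330). In the order of the groups, the normal groups overlapped each other, as did each neighbouring pair from implanted cGAMP through implanted PBS and MMTV-PyMT PBS to MMTV-PyMT cGAMP.

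**Figure D2:**
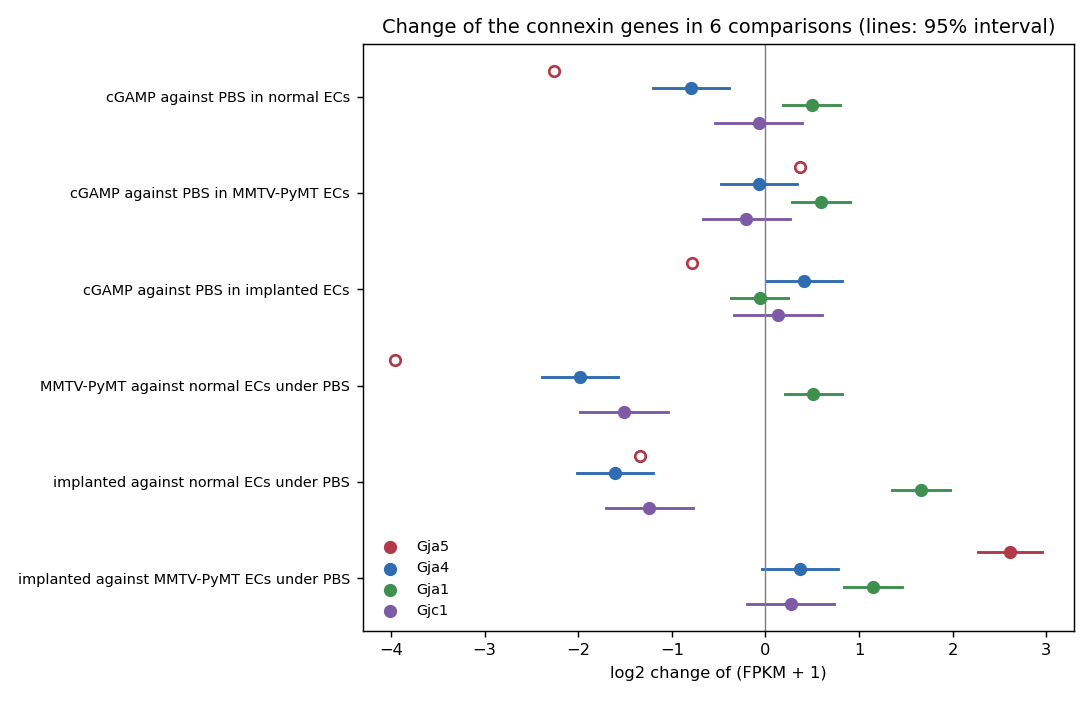
Log2 change of (FPKM + 1) of the 4 genes (horizontal axis) in 6 comparisons (vertical axis), with 95% intervals from limma as lines. Open circles are values of Gja5 with no test. The filled Gja5 point at 2.62 is the difference of contrasts that its choice used, and is a description too. In both tumours under PBS, Gja4 and Gjc1 lie left of 0 and Gja1 lies right of 0.

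The counts of passing members are read against all tested genes. Of Gja4, Gja1 and Gjc1, 1 rose and 1 fell with cGAMP in normal ECs, where 31.9% of tested genes passed (13.7% higher, 18.2% lower). In MMTV-PyMT ECs 1 rose, against 12% (7.42% higher, 4.57% lower). In implanted ECs 0 passed by limma, against 39.1% (20.3% higher, 18.8% lower). At an unadjusted p under 0.05, 1 did there, Gja4, and 1 of the 3 passed as a fall with either other scaling, Gja1. Under PBS 3 of 3 passed in MMTV-PyMT against normal ECs, 2 lower and 1 higher, where 56.5% of tested genes passed (29.8% higher, 26.6% lower). In implanted against normal ECs 3 of 3 passed as well, 2 lower and 1 higher, against 48.7% (25% higher, 23.6% lower). These 3 genes are too few to set them apart from that background.

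The makeup of the connexin transcripts differed between the tissues. In normal ECs under PBS the 4 genes summed to 187 ± 4.45 FPKM (SD, n = 3), of which Gja4 made up 64.4%, Gja5 17.5%, Gja1 11.6% and Gjc1 6.48%. Gja1 took the first place in the tumours. In MMTV-PyMT ECs under PBS the sum was 66.3 ± 9.60 FPKM (SD, n = 3), with 47.6% from Gja1, 45.2% from Gja4 and 1.78% from Gja5. In implanted ECs under PBS the sum was 127 ± 11.6 FPKM (SD, n = 3), with 56.0% from Gja1, 30.7% from Gja4 and 9.73% from Gja5.

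With cGAMP, the sum in normal ECs was 119 ± 14.1 FPKM (SD, n = 3), with Gja5 at 5.36% and Gja1 at 26.4% of it. The ratio of Gja1 to Gja4 was 0.181 ± 0.0144 in normal ECs under PBS and 0.458 ± 0.108 under cGAMP (SD, n = 3), and the ranges did not overlap. In MMTV-PyMT ECs it was 1.05 ± 0.0386 under PBS and 1.70 ± 0.288 under cGAMP (SD, n = 3), again without overlap. In implanted ECs the ratio was lower with cGAMP, with 1.83 ± 0.189 under PBS and 1.30 ± 0.0513 under cGAMP (SD, n = 3). A ratio within a library does not depend on how libraries were scaled to each other, and it does not show which of the genes moved.

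**Figure D3:**
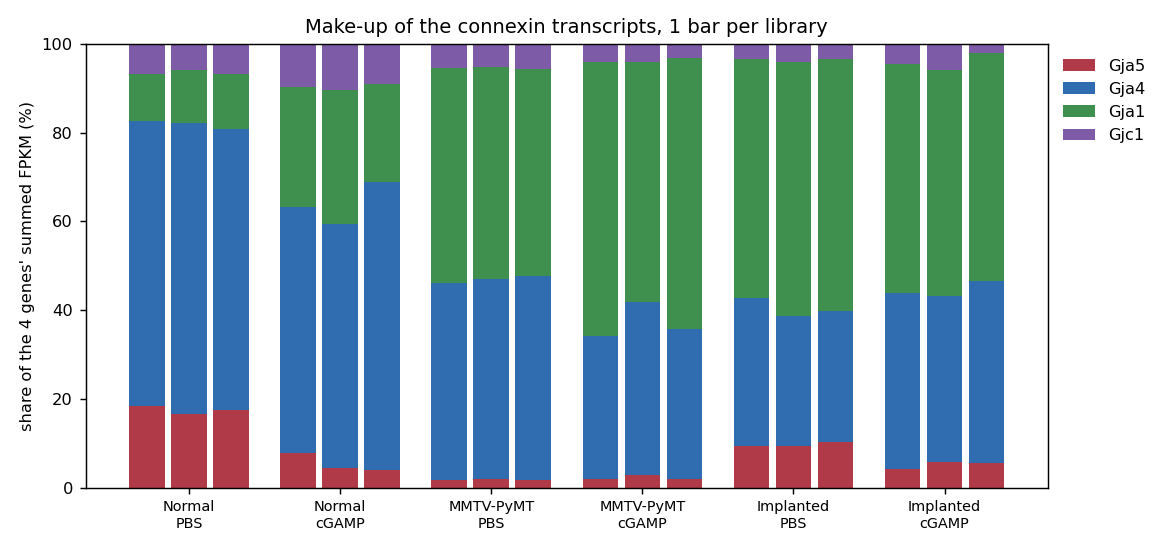
Share of each gene in the summed FPKM of the 4 connexin genes (vertical axis, percent), with 1 stacked bar per library in 6 groups (horizontal axis). Gja4 holds over 63% of every normal PBS library, and Gja1 holds the largest share of every tumour library.

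Other connexin and pannexin genes were searched by name. Gjb2 and Panx1 passed the filter on low values. Gjb2, a connexin of secretory and other epithelia, had 4.26 ± 1.31 FPKM in normal ECs under PBS, 109 ± 16.7 FPKM in MMTV-PyMT ECs and 12.1 ± 6.6 FPKM in implanted ECs (SD, n = 3). It was higher in MMTV-PyMT than in normal ECs by 4.41 on the log2 scale (SE 0.45, adjusted p = 8.76e-07), and epithelial markers were higher there as well (4 of 6 passed, against 29.8% of all tested genes). Set against the summed epithelial markers, Gjb2 stood at 124 ± 16.9 per 1000 FPKM in MMTV-PyMT ECs and at 11.8 ± 2.46 in normal ECs under PBS (SD, n = 3). In implanted against normal ECs its log2 change was 1.2 (SE 0.45, adjusted p = 0.0375), a call that was lost with scaling to total reads and without normal PBS 2, normal PBS 3, implanted PBS 1 or implanted PBS 3. Panx1, which forms channels to the outside of the cell, rose with cGAMP in normal ECs by 0.46 (SE 0.15, adjusted p = 0.0279), but not without normal PBS 1, normal PBS 3, normal cGAMP 2 or normal cGAMP 3. In implanted ECs with cGAMP and in implanted against MMTV-PyMT ECs 0 of the 2 tested were higher by limma, and 1 was in fits without 1 library (normal cGAMP 1 or 2, MMTV-PyMT PBS 2 or 3 or implanted cGAMP 3 for the first, MMTV-PyMT PBS 2 or implanted cGAMP 3 for the second). Among the genes not tested, Gja6 had group means from 0.176 to 0.337 FPKM and Gjd3 from 0.391 to 0.909 FPKM.

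Most mural markers were lower in both tumours under PBS, as Gjc1 was. Under PBS 8 of the 10 mural markers were lower and 0 higher in MMTV-PyMT than in normal ECs (median log2 change −2.07), where 26.6% of all tested genes were lower. In implanted against normal ECs 8 were lower (median −2.01, against 23.6% of all tested genes) and 1 was higher, the channel subunit Abcc9, with 61.0 ± 6.89 against 40.2 ± 3.52 FPKM (SD, n = 3). Myh11, the smooth muscle myosin, stood at 79.3 ± 8.61 FPKM in normal ECs under PBS, against 4.46 ± 1.36 and 3.62 ± 0.526 FPKM in the MMTV-PyMT and implanted groups (SD, n = 3). Over the 18 libraries the log levels of Gjc1 and of the summed mural markers had a Pearson correlation of 0.953, and of 0.881 for deviations from the group means. Per 1000 FPKM of mural markers, Gjc1 stood at 10.3 ± 1.16 FPKM in normal ECs, at 11.7 ± 0.918 FPKM with MMTV-PyMT tumours and at 14.5 ± 1.88 FPKM with implanted tumours, all under PBS (SD, n = 3). The implanted libraries lay above the normal ones on this scale, and the MMTV-PyMT libraries overlapped both. Under cGAMP the values were 10.7 ± 0.624, 8.67 ± 0.965 and 13.2 ± 2.53 FPKM in normal, MMTV-PyMT and implanted ECs (SD, n = 3). With MMTV-PyMT tumours the cGAMP libraries (7.56 to 9.23) lay below the PBS libraries (10.8 to 12.7). There Gjc1 and the mural sum parted, while cGAMP and PBS libraries overlapped in the other tissues. In the implanted cGAMP libraries 1, 2 and 3, Gjc1 and the mural sum had the same order, with sums of 557, 397 and 251 FPKM. The part of mural cells in the levels of Gjc1 was not tested.

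**Figure D4:**
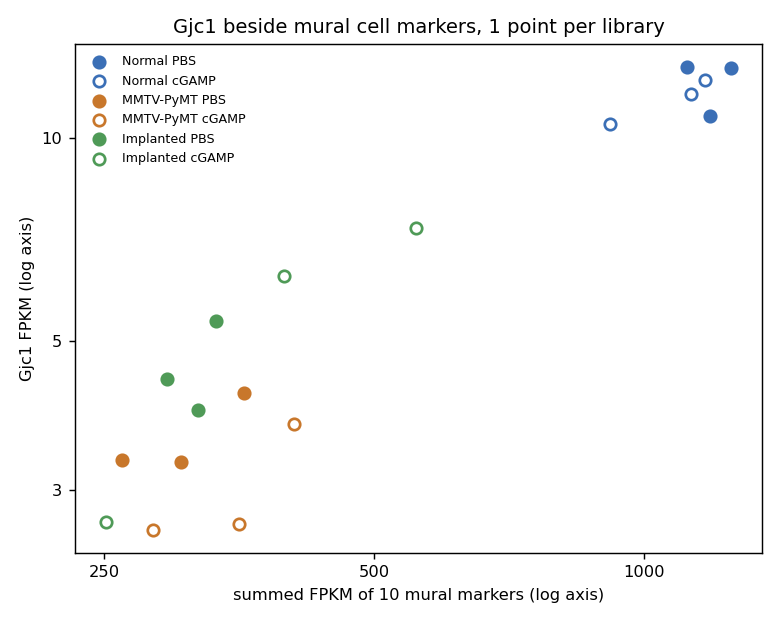
Gjc1 (vertical axis, FPKM, log axis) against the summed FPKM of 10 mural markers (horizontal axis, log axis), with 1 point per library, filled for PBS and open for cGAMP. Normal libraries lie at the upper right and tumour libraries at the lower left, with the 3 implanted cGAMP libraries spread along the same direction.

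The other members were set against the marker sums too. Gja4 had a correlation of 0.874 with the mural sum over the 18 libraries and of 0.512 within groups. For Gja1 it was −0.63 over all libraries and 0.593 within groups, and for Gja5 0.586 and 0.00661. Within groups, Gja1 and Gja4 were closest to the endothelial sum, with 0.895 and 0.830. They stood there at 0.743 and 0.686 with the lymphatic sum and at −0.68 and −0.61 with the epithelial sum. Gja5 had −0.79 with the epithelial sum over all libraries and −0.34 within groups, and 0.671 and 0.468 with the lymphatic sum. Gja1 had a correlation of 0.795 with the fibroblast sum over all libraries and of −0.07 within groups. Per 1000 FPKM of fibroblast markers under PBS, Gja1 stood at 289 ± 16.8, 232 ± 93.9 and 289 ± 36.6 FPKM in normal, MMTV-PyMT and implanted ECs (SD, n = 3). Under cGAMP the values in the same order were 503 ± 118, 356 ± 74.6 and 176 ± 85.6 FPKM (SD, n = 3). Fibroblast markers were higher with cGAMP in implanted ECs (4 of 5 passed, against 20.3% of all tested genes), where Gja1 did not rise. In implanted against normal ECs 2 of 5 fibroblast markers were higher and 2 lower, against 25% and 23.6% of all tested genes. Each of these correlations is across libraries that share 6 groups, and the part of other cell types was not tested.

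Arterial genes were looked up from a list of 20, of which 19 were tested. With cGAMP in normal ECs 14 fell and 0 rose, with a median log2 change of −0.72 against −0.04 for all tested genes, and 18.2% of all tested genes fell. The 3 with the largest changes were Hey1, a Notch target (−1.51, adjusted p = 2.00e-05), Vegfc, a growth factor of lymphatic vessels (−1.19, adjusted p = 0.000735), and Stmn2 (−1.01, adjusted p = 0.000377). The change of Gja5, a gene chosen for its fall, was below that of every arterial gene, and 6 of them changed below Gja4. In MMTV-PyMT ECs, where 4.57% of all tested genes fell, 1 arterial gene did, Hey1 (−0.76, adjusted p = 0.0120), and it did not pass without MMTV-PyMT PBS 3 or cGAMP 3. In implanted ECs 4 fell and 1 rose, against 18.8% and 20.3% of all tested genes. The falls were those of Hey1 (−0.77, adjusted p = 0.00336), Efnb2, the arterial ephrin (−0.56, adjusted p = 0.0383), Unc5b, a netrin receptor (−0.56, adjusted p = 0.00955), and Jag1, a Notch ligand (−0.45, adjusted p = 0.0275). The rise was that of Hey2, another Notch target (0.42, adjusted p = 0.0488), and of the fits without 1 library it was absent in most and the rises numbered 2 without implanted cGAMP 2. Genes named to complete such a short count, as Jag1 and Hey2 here, were chosen after their values were seen. With scaling to total reads 10 fell there, and 2 fell without implanted PBS 1, implanted PBS 3 or implanted cGAMP 2.

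In the tumours under PBS the arterial list was mostly lower than in normal ECs. In MMTV-PyMT ECs 14 of 19 were lower and 1, Unc5b, higher (median −1.27 against 0.02 for all tested genes, of which 26.6% were lower and 29.8% higher), led by the semaphorin Sema3g (−3.20), the kinase Bmx (−2.54) and Stmn2 (−2.47). The change of Gja5 there, again a fall behind its choice, was −3.96, below all 19. In implanted ECs 10 were lower and 5 higher (median −1.19 against 0.01 for all tested genes, of which 23.6% were lower and 25% higher), with Bmx at −2.95, Sema3g at −2.71 and the chemokine receptor Cxcr4 at 2.64. The other higher genes were Unc5b (2.40), Notch4 (1.44), Dll4 (1.23) and Efnb2 (0.83). The change of Gja5 was −1.34 and that of Gja4 −1.61, with 8 and 6 arterial genes below them. Between the tumours, 12 of 19 were higher in implanted ECs and 1 lower (20.8% and 24.6% of all tested genes), with Cxcr4 at 2.43, Unc5b at 1.75 and the Notch receptor Notch4 at 1.74, and the change of Gja5 (2.62) was above all 19. The lower gene was Bmx (−0.41, adjusted p = 0.0229), and this count was 0 without MMTV-PyMT PBS 1 and became 2 without implanted cGAMP 1 or implanted cGAMP 2.

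**Figure D5:**
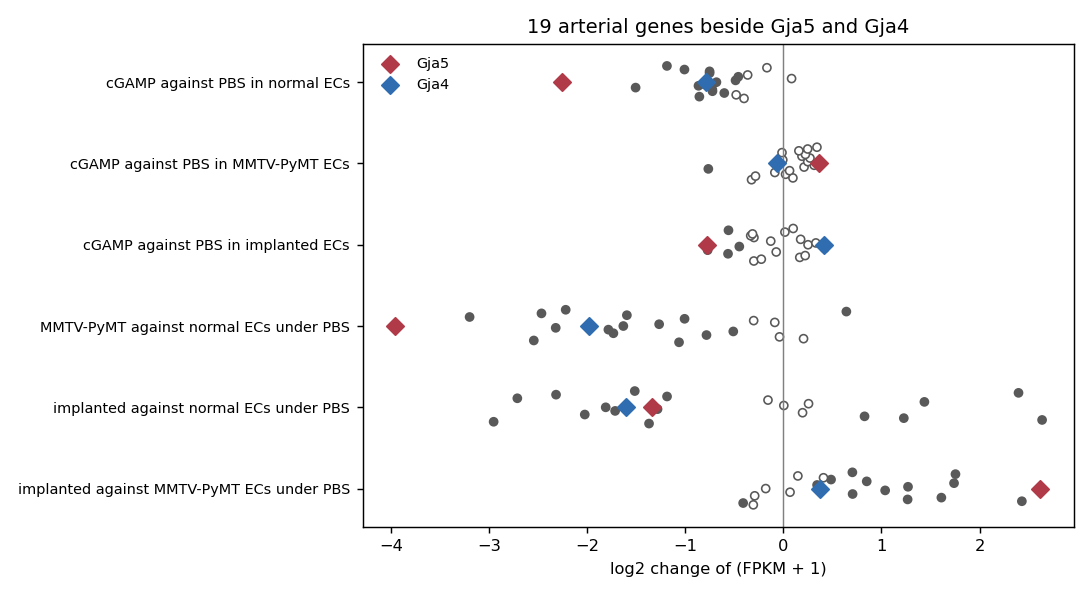
Log2 change of (FPKM + 1) (horizontal axis) of 19 arterial genes in 6 comparisons (vertical axis), filled where the adjusted p was under 0.05, with Gja5 and Gja4 as diamonds. The Gja5 diamond lies left of all arterial genes in normal ECs with cGAMP (−2.26), in implanted ECs with cGAMP (−0.78) and in MMTV-PyMT against normal ECs (−3.96). Gja5 was chosen for these falls, and the arterial list was drawn up with earlier results of these data known.

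Proteins that bind, modify or turn over connexins were counted from a list of 21, of which 20 were tested. With cGAMP in normal ECs 9 fell and 0 rose (median log2 change −0.24), against 18.2% of all tested genes falling and 13.7% rising, but 1 rose without normal cGAMP 1, normal cGAMP 3, MMTV-PyMT cGAMP 1 or implanted cGAMP 1. The largest falls were those of Cnst, a sorting protein of connexins (−0.73, adjusted p = 0.000547), Cav1, the main protein of caveolae (−0.63, adjusted p = 0.00299), and Tjp1, the junction scaffold that binds connexin tails (−0.54, adjusted p = 0.00431). In MMTV-PyMT ECs 0 fell and 1 rose (4.57% and 7.42% of all tested genes), the actin-binding Dbn1 (0.66, adjusted p = 0.0309), which did not pass without PBS 2, PBS 3, cGAMP 2 or cGAMP 3. In implanted ECs 3 rose and 4 fell (20.3% and 18.8% of all tested genes), with the kinase Prkce at 1.09 (adjusted p = 2.12e-05), the matricellular Ccn3 at 0.85 (adjusted p = 0.00483) and Cnst at −0.73 (adjusted p = 0.000344). Smurf2, Prkca and Mapk7 made up the other falls. The falls numbered 14 with quantile normalization and 13 with scaling to total reads, and the rises 5 without implanted cGAMP 2.

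Under PBS, 4 partners were higher and 6 lower in MMTV-PyMT than in normal ECs (29.8% and 26.6% of all tested genes), with the kinase Prkca at 1.70, Cav1 at −1.62 and Ccn3 at −1.23. In implanted against normal ECs 7 were higher and 4 lower (25% and 23.6% of all tested genes), with Dbn1 at 2.49, Prkca at 1.34 and Cav1 at −1.22. In implanted against MMTV-PyMT ECs 10 were higher and 3 lower (20.8% and 24.6% of all tested genes), with Dbn1 at 2.10, Ccn3 at 1.41 and the ubiquitin ligase Smurf2 at 0.82. Without implanted cGAMP 2 the lower partners in that comparison numbered 5. Under PBS Dbn1 stood at 4.04 ± 0.545 FPKM in normal ECs, and at 5.61 ± 0.718 and 27.5 ± 4.14 FPKM in the MMTV-PyMT and implanted groups (SD, n = 3), the same order of tissues as Gja1.

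Transcription factors of endothelium, some of which are known regulators of arterial connexins, were 12 in number. With cGAMP in normal ECs 6 of the 12 fell and 0 rose (median log2 change −0.40), against 18.2% of all tested genes falling and 13.7% rising, led by Sox18 (−1.06, adjusted p = 0.000930), Gata2 (−0.86, adjusted p = 0.00125) and the Notch target Hes1 (−0.83, adjusted p = 0.000802), with Foxc2, Klf2 and Klf4 as the others. In implanted ECs Sox18 fell as well (−0.89, adjusted p = 0.00221), while the flow-induced factors Klf4 (0.90, adjusted p = 0.00119) and Klf2 (0.65, adjusted p = 0.0428) rose, against 18.8% of all tested genes falling and 20.3% rising. Klf2 is near the threshold, and the 2 rises were 1 without normal PBS 1, normal cGAMP 2, implanted cGAMP 3 or any implanted PBS library, while the single fall became 2 without implanted cGAMP 1. In MMTV-PyMT ECs Klf2 rose (0.94, adjusted p = 0.0167), and Hes1 (−0.63, adjusted p = 0.0143) and Foxo1 (−0.40, adjusted p = 0.00259) fell, against 7.42% of all tested genes rising and 4.57% falling. Without 1 MMTV-PyMT library the rises there numbered 0 (PBS 2, PBS 3, cGAMP 2, cGAMP 3), 2 (cGAMP 1) or 3 (PBS 1, and also without implanted cGAMP 1), and the falls 1 without PBS 2.

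Klf2 and Klf4 were lower in both tumours under PBS. In MMTV-PyMT against normal ECs Klf2 stood at −2.52, Klf4 at −2.32 and Gata2 at −1.22, with 5 of 12 factors lower (also Foxc2 and Erg) and 1 higher, Foxc1, against 26.6% and 29.8% of all tested genes (3 lower without MMTV-PyMT PBS 3). In implanted against normal ECs Klf4 stood at −2.69, Klf2 at −1.82 and Sox18 at 0.99, with 4 lower (also Foxo1 and Gata2) and 2 higher (also Ets1), against 23.6% and 25% of all tested genes. In implanted against MMTV-PyMT ECs 3 were higher (Sox18 at 1.13, Ets1 at 0.79 and Klf2 at 0.70) and 2 lower (Foxc1 and Foxo1), against 20.8% and 24.6% of all tested genes, and the higher ones numbered 6 without MMTV-PyMT PBS 1.

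Genes of conducted vasodilation, the spread of relaxation along the vessel wall that endothelial gap junctions carry, were 8. With cGAMP in normal ECs 4 fell, Kcnn3 among them, and 0 rose (median log2 change −0.49), against 18.2% of all tested genes falling and 13.7% rising. The largest falls were those of the potassium channel Kcnn4 (−0.95, adjusted p = 0.00358), the calcium channel Trpv4 (−0.68, adjusted p = 0.00641) and the calcium release channel Itpr1 (−0.50, adjusted p = 0.00240). Kcnn4 also fell in MMTV-PyMT (−0.80, adjusted p = 0.0235) and implanted ECs (−0.86, adjusted p = 0.00499). In MMTV-PyMT ECs that call and the rise of Nos3, the endothelial nitric oxide synthase (0.75, adjusted p = 0.0425), were lost without PBS 2, PBS 3, cGAMP 2 or cGAMP 3, and Nos3 also without normal PBS 1, 2 or 3, normal cGAMP 2, implanted PBS 1 or implanted cGAMP 3. In implanted ECs the inward rectifier Kcnj2 fell by 0.72 (adjusted p = 0.00414) and Itpr1 rose by 0.57 (adjusted p = 0.000588), and 2 of the 8 passed in each direction (Itpr2 being the other rise), close to the 20.3% of all tested genes that rose and the 18.8% that fell. Under PBS Trpv4 was 11.6-fold lower in MMTV-PyMT and 10.4-fold lower in implanted than in normal ECs, and Kcnn4 was 7.10-fold and 2.89-fold higher. In MMTV-PyMT ECs 2 were higher (also Itpr3) and 4 lower (also Kcnn3, Nos3 and Itpr1, the last at −1.36), against 29.8% and 26.6% of all tested genes, and in implanted ECs 2 were higher and 3 lower (also Kcnn3 and Itpr1), against 25% and 23.6%, Kcnj2 being 4.74-fold higher. Between the tumours Kcnj2 (1.73) and Nos3 (1.37) were higher and Kcnn4 (−1.25) was lower in implanted ECs, with 2 of 8 in each direction (Itpr3 being the other lower gene), against 20.8% of all tested genes higher and 24.6% lower.

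The tested genes whose log levels were most like each member were found by Pearson correlation over the 18 libraries, a description in which libraries of a group are alike by design. For Gja5 they were Calhm2 (0.965), Invs (0.962), Tmcc2 (0.957), Edn1 (0.955) and Tbc1d2b (0.953). Edn1, the vasoconstrictor peptide endothelin, stood at 46.7 ± 5.57 FPKM in normal ECs under PBS and 12.3 ± 2.63 FPKM under cGAMP, at 3.42 ± 0.549 and 4.97 ± 0.767 FPKM in MMTV-PyMT ECs, and at 13.6 ± 1.36 and 14.7 ± 5.82 FPKM in implanted ECs (SD, n = 3). Within groups its correlation with Gja5 was 0.188, so the likeness lies between groups. For Gja4 the closest were Col8a1 (0.965), a gene whose name a spreadsheet had turned into a date (0.963), Ttbk2 (0.958), Sulf1 (0.958) and Epas1 (0.957). Epas1, an oxygen-sensing transcription factor, kept 0.816 within groups.

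For Gja1 the closest genes were Akr1b8 (0.972), Tfpi2 (0.966), Dbn1 (0.962), Ppm1j (0.960) and Map4k4 (0.958), and Dbn1 and Map4k4 kept 0.881 and 0.878 within groups. Gjc1 was closest to Ednra, the endothelin receptor of smooth muscle (0.987, and 0.954 within groups), Il34 (0.975), Kirrel (0.973), Aoc3, an amine oxidase of smooth muscle and endothelium (0.969), and Ndufa4l2 (0.967). Under PBS Ednra stood at 17.6 ± 1.76 FPKM in normal ECs, and at 5.89 ± 0.412 and 6.45 ± 0.109 FPKM in the MMTV-PyMT and implanted groups (SD, n = 3). Among the members themselves, Gja4 had a correlation of 0.812 with Gja5 and of 0.882 with Gjc1, and Gja1 one of −0.46 with Gja4 and −0.16 with Gja5. Within groups the pair of Gja1 and Gja4 stood at 0.666.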

How the data were processed

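RNA-seq of sorted ECs was measured in 18 libraries, 3 in each of 6 groups. The authors deposited 1 table of FPKM values per gene and library. According to the methods and processing notes, STAR 2.7 aligned the reads to mm10 and HTSeq counted them, and the step from counts to FPKM was not given. Some columns (6 of 18) name only a treatment and were taken as normal fat pad, the tissue left over. FPKM values were whole multiples of 1 read for 15791 of 16012 genes matched to GENCODE M21 (98.6%, tolerance 0.05 reads). The denominators of the FPKM values were 0.746 to 1.17 times the recovered reads, so scaling to total reads was an alternative. No values were at 0, so the table lists genes seen in every library. Without molecular identifiers, the precision that read numbers give is for counting error alone.

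Genes with FPKM of at least 1 in at least 3 libraries were tested (13983, with 2265 below), on log2(FPKM + 1), with limma 3.58.1 in R 4.3.3 (1 mean per group over all 18 libraries, eBayes with a trend, 2-sided, 9 comparisons). The Benjamini-Hochberg adjustment of p-values covered every tested gene, and a gene passed under 0.05. The script was tested on simulated data. Replicate pairs (18) differed by more than counting noise, with a chi-square of 4.13 to 32.0 per gene. The members and lists were chosen with earlier results of these data known. Named genes were the members, the other listed connexins, up to 3 passing genes per list and comparison with the largest change, and per member the 5 genes with the highest and 3 with the lowest correlation. Alternatives were a pseudocount of 0.1, no filter, a mean FPKM of at least 5, quantile normalization, scaling to total recovered reads, voom on recovered reads, the compared groups alone, the replicate number as a block, and leaving out each library. Some listed genes are not reported here.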

Additional observations from a re-analysis of the deposited data

Results flagged for a closer look

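The response of Gja4 to cGAMP differed between tissues by the test of the difference itself. It was 1.21 higher in implanted than in normal ECs on the log2 scale (SE 0.27, adjusted p = 0.00553, limma), and passed in each of the 26 alternatives (0.88 to 1.38). In normal ECs 3 of 3 treated libraries lay below all untreated ones, and in implanted ECs 2 of 3 lay above them.

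The response of Gja1 was lower in implanted than in MMTV-PyMT ECs, a difference of −0.66 (SE 0.20, adjusted p = 0.0498, limma). The call is at the threshold and was lost in 15 of 18 fits that left out 1 library and in 4 of the 8 other alternatives. In MMTV-PyMT ECs 3 of 3 treated libraries lay above all untreated ones, and in implanted ECs 1 lay above and 1 below them.

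All treated libraries of Gja5 lay below the untreated ones in normal and in implanted ECs and above them in MMTV-PyMT ECs. The cGAMP effect in MMTV-PyMT minus that in normal ECs was 2.62, and the effect in implanted minus that in MMTV-PyMT ECs was −1.15. These differences were not tested, because the choice of the gene used these contrasts, and the MMTV-PyMT values rest on 74 to 148 reads per library.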

How the results depend on the processing

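Each of 36 changes of the members was recomputed under 26 alternatives, and 880 of 936 values kept their direction and side of the threshold or, without a test, moved by less than the replicate spread. Where the following values differ the cause was not tested. With voom on recovered reads, Gja5 changed by 0.59 with cGAMP in MMTV-PyMT ECs, by −4.80 in MMTV-PyMT against normal ECs, and its effects differed by 3.03 (MMTV-PyMT minus normal) and −1.45 (implanted minus MMTV-PyMT). With a pseudocount of 0.1 the last 3 were −4.69, 2.99 and −1.42. With scaling to total reads, which shifts the median of all genes by −0.11 (MMTV-PyMT) and −0.23 (implanted) with cGAMP, the cGAMP changes in implanted ECs were −1.05 for Gja5, −0.38 for Gja1 and −0.13 for Gjc1. The same scaling gave effects differing by 1.23 (Gja5), −0.87 (Gja1) and −0.048 (Gjc1) between implanted and normal ECs and by −0.031 for Gja1 between MMTV-PyMT and normal ECs. Quantile normalization gave −0.46 for Gja1 with cGAMP in implanted ECs and −0.95 for implanted minus normal. With the compared groups alone, Gja4 in implanted against MMTV-PyMT ECs passed at 0.37 (adjusted p = 0.0350). For Gja1, implanted minus MMTV-PyMT, the value of −0.66 did not pass without the filter (adjusted p = 0.0549), with the compared groups alone (0.104) or with a replicate block (0.0742), nor did −0.67 with a pseudocount of 0.1 (0.0502).

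Leaving out 1 library gave ranges of −2.47 to −2.13 (Gja5) and 0.43 to 0.54 (Gja1) with cGAMP in normal ECs, −0.24 to 0.13 (Gja4) and 0.50 to 0.72 (Gja1) in MMTV-PyMT ECs, and 0.25 to 0.59 (Gja4), −0.22 to 0.08 (Gja1) and −0.10 to 0.49 (Gjc1) in implanted ECs. For differences of effects the ranges were 2.45 to 2.84 (Gja5) and 0.55 to 0.92 (Gja4) for MMTV-PyMT minus normal, 1.35 to 1.69 (Gja5), −0.72 to −0.41 (Gja1) and −0.03 to 0.57 (Gjc1) for implanted minus normal, and −0.82 to −0.51 (Gja1) and 0.11 to 0.70 (Gjc1) for implanted minus MMTV-PyMT. Signs turned for Gja4 in MMTV-PyMT ECs without PBS 1 (0.03) or cGAMP 1 (0.13), for Gja1 in implanted ECs without PBS 2 (0.001) or cGAMP 2 (0.083), and for Gjc1 without implanted cGAMP 1 in implanted ECs (−0.10) and in implanted minus normal (−0.025). Gja1 in implanted minus normal passed without implanted cGAMP 1 (−0.72, adjusted p = 0.0144), and Gjc1 in implanted minus MMTV-PyMT without implanted cGAMP 3 (0.70, adjusted p = 0.0283).

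Replicate numbers shared between groups showed no clear pairing of the libraries, but values from 3 libraries per group cannot exclude one. In 0 of 15 pairs of groups did all same-numbered libraries correlate above 0.1 (range over 45 pairs −0.35 to 0.29), and the block changed no call of a member but that of Gja1 (implanted minus MMTV-PyMT). Among the lists, the block left 0 rises of conducted vasodilation genes in MMTV-PyMT ECs in place of 1 (Nos3), and in implanted ECs 0 arterial rises in place of 1 (Hey2) and 1 transcription factor rise in place of 2. With it 1 venous gene fell in normal ECs in place of 2, 1 in place of 2 was lower in implanted than in MMTV-PyMT ECs, and other connexins higher numbered 1 in place of 0 (implanted ECs with cGAMP, and implanted against MMTV-PyMT ECs) and 0 in place of 1 (implanted against normal ECs). Scaling to total reads gave 1694 higher and 5912 lower genes with cGAMP in implanted ECs, against 2841 and 2623, and 914 and 2392 against 1037 and 639 in MMTV-PyMT ECs. Tumour tissues under PBS gave 2502 and 4817 against 3499 and 3305 (implanted against normal) and 2180 and 4939 against 2915 and 3446 (implanted against MMTV-PyMT). Depth limits Gja5 in MMTV-PyMT ECs most, with 74 to 148 reads per library.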

Other observations

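Venous genes (6 listed, all tested) were counted too. With cGAMP in normal ECs 1 rose and 2 fell, against 13.7% and 18.2% of all tested genes. In MMTV-PyMT ECs 2 rose and 0 fell, against 7.42% and 4.57%. In implanted ECs 2 rose and 0 fell, against 20.3% and 18.8%. The falls there numbered 2 without implanted PBS 1 or implanted cGAMP 3, and 1 without implanted cGAMP 1. With cGAMP Selp, the P-selectin that recruits leukocytes, rose in normal (1.18, adjusted p = 0.00303), MMTV-PyMT (1.94, adjusted p = 8.64e-05) and implanted ECs (0.99, adjusted p = 0.00730, limma). Ackr1, a chemokine-binding receptor of venules, rose in MMTV-PyMT (1.51, adjusted p = 0.000398) and implanted ECs (1.77, adjusted p = 2.18e-05). In normal ECs the apelin receptor Aplnr fell (−1.29, adjusted p = 0.000459), as did the venous factor Nr2f2 (−0.66, adjusted p = 0.0337), and without any 1 of the 6 normal libraries 1 venous gene fell in place of 2. Under PBS 2 of the 6 were lower and 0 higher in MMTV-PyMT than in normal ECs, against 26.6% and 29.8% of all tested genes. In implanted ECs 3 were lower and 0 higher, against 23.6% and 25%. Ackr1 was 4.77-fold lower in MMTV-PyMT and 7.18-fold lower in implanted than in normal ECs, and Nr2f2 4.37-fold and 3.51-fold lower. The other lower gene in implanted ECs was Selp (−1.20, adjusted p = 0.00130, limma).

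At the other end of the correlations, the lowest values over the 18 libraries were those of Col9a3 (−0.98), Dnajc5 (−0.97) and Arih2 (−0.96) with Gja5, of B4galt1 (−0.96), Slc7a5 (−0.95) and Lrrc8d (−0.94) with Gja4, of Ephx2 (−0.96), Prps2 (−0.96) and Atp2a3 (−0.95) with Gja1, and of Nipal2 (−0.97), Stk39 (−0.96) and Fdps (−0.95) with Gjc1. Col9a3, a collagen chain of cartilage, stood at 2.78 ± 0.555 FPKM in normal ECs under PBS and 6.87 ± 1.56 FPKM under cGAMP, and at 13.1 ± 0.778 and 5.48 ± 0.582 FPKM in the MMTV-PyMT and implanted groups under PBS (SD, n = 3). Within groups its correlation with Gja5 was −0.77. These are values across libraries in 6 groups, and no test was made of them.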
